A study of Mus musculus with 12 samples.

Results

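Markers of the airway epithelium were followed across 12 Affymetrix mouse arrays of cultured mouse lung cells. The set held 10 genes out of 18193 measured: the secretoglobins Scgb1a1, Scgb3a1 and Scgb3a2, the goblet cell genes Clca1 (also listed as Clca3), Muc5ac, Muc5b, Agr2 and Spdef, the ciliated cell gene Foxj1 and the basal cell gene Trp63. Every probe set annotated to 1 of these genes and to no other was used, which gave 15 probe sets out of 45037 non-control probe sets. A gene with several probe sets was represented by the one with the highest mean over the arrays, and its other probe sets were read separately.

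The cells were labelled as type II alveolar epithelial cells from mouse lung, and the study set cells of double knockout mice beside cells of single knockout mice. Per the labels, the groups of 3 arrays each were deficient in Gnaq and Gna11 (Gnaq/Gna11), in Gna12 and Gna13 (Gna12/Gna13), in Gna12 alone (Gna12) or in Gna11 alone (Gna11). These genes encode alpha subunits of heterotrimeric G proteins, which pass signals from cell surface receptors to phospholipase C (Gq and G11) or to the small GTPase RhoA (G12 and G13). All 12 samples were untreated cells kept for 7 days on collagen in a bronchial epithelial medium with 10 μg/ml keratinocyte growth factor and without hydrocortisone. Both groups of the Gnaq/Gna11 pair were deficient in Gna11 and both groups of the Gna12/Gna13 pair in Gna12, and no wild-type cells were among the samples. The sources used here do not give the strain, the age, the promoter behind any conditional deletion, or whether the samples of a genotype were separate animals or cultures. Each p-value therefore covers the spread among these samples alone, which may be technical.

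In the mouse airway, club cells secrete secretoglobins, goblet cells make the gel-forming mucins, multiciliated cells move the mucus, and basal cells are stem cells marked by Trp63. Signalling by IL-13 and IL-4 through STAT6 is the textbook inducer of goblet cell genes such as Clca1 and Muc5ac. Type II alveolar cells make surfactant, and preparations of lung epithelium can also hold airway cells and leukocytes.

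The arrays differed in ways other than genotype. Values are on the log2 scale throughout, and array medians lay between 5.032 and 5.11. All 9 measured markers of type II cells, Sftpc among them, lay above the background level in 12 of 12 arrays. That level was taken, array by array, as the 95th percentile of 80 probe sets for olfactory and vomeronasal receptors, and it lay between 4.82 and 5.07. Pan-leukocyte genes (20 of them) had a mean of 9.43 ± 0.025 in Gnaq/Gna11, 9.50 ± 0.469 in Gna12/Gna13, 9.80 ± 0.338 in Gna12 and 8.73 ± 0.355 in Gna11 arrays (SD, n = 3 each). An excess of the 3' over the 5' control probe set can be a sign of shortened RNA. For Gapdh this excess was 3.14 ± 0.125 in Gnaq/Gna11, 3.15 ± 0.174 in Gna12/Gna13, 3.00 ± 0.298 in Gna12 and 3.70 ± 0.295 in Gna11 arrays. For the Actb controls it was 3.10 ± 0.319, 3.17 ± 0.166, 3.00 ± 0.142 and 3.23 ± 0.178 in the same order. Only the Gapdh excess thus set the Gna11 arrays apart. The Y-linked gene Eif2s3y was at 3.56 or below in all 3 Gnaq/Gna11 arrays and in replicate 2 of each other group, and at 6.91 or above in the rest. The targeted genes were a partial check of the labels: Gnaq, Gna11, Gna12 and Gna13 each had 1 probe set whose labelled knockout arrays all lay below all other arrays, by 1.23, 1.11, 0.31 and 1.04 in the mean, out of 7, 2, 5 and 7 probe sets. Gna11 itself was represented by its other probe set, at 8.35 ± 1.145 in Gna11 arrays and 7.79 ± 0.440 in Gna12/Gna13 arrays. The sources used here do not say which probe sets cover deleted sequence, and a probe set outside it checks nothing.

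**Figure D1:**
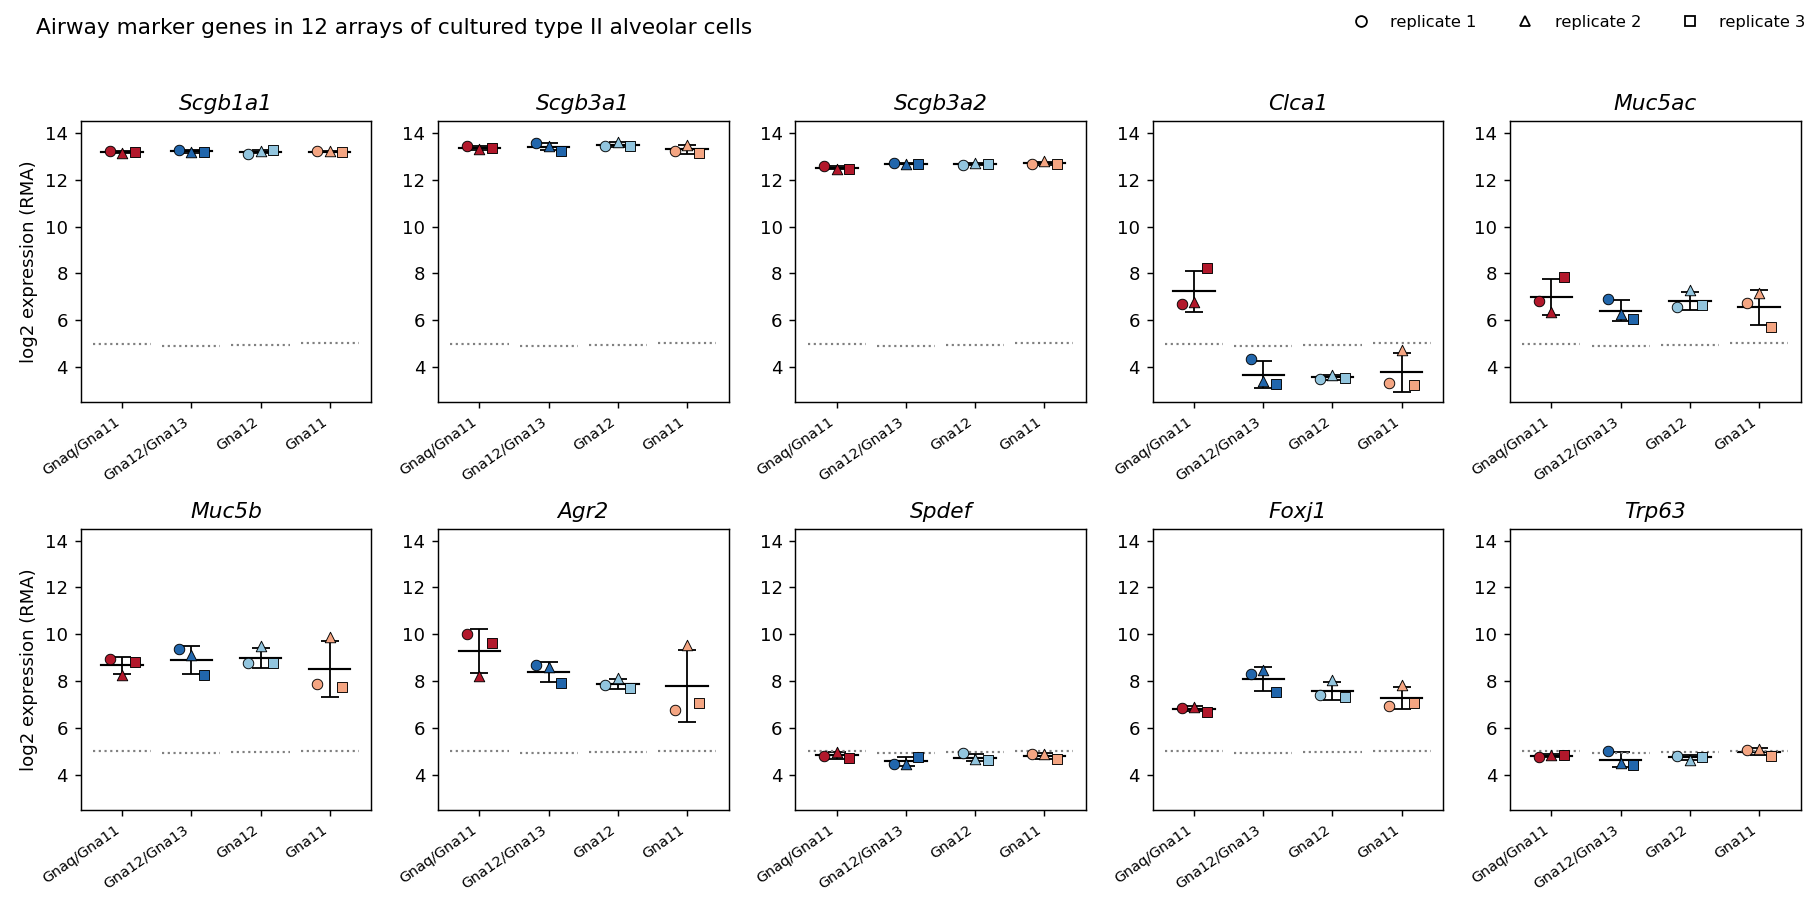
Expression of the 10 airway markers in each of the 12 arrays, on the log2 scale, with group means and SD (n = 3 arrays a group). The secretoglobins vary by 0.46 or less over the arrays, Clca1 is high in the 3 Gnaq/Gna11 arrays and in no other, and Foxj1 is lowest in the Gnaq/Gna11 arrays.

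The 3 secretoglobins, which mark club cells and other airway secretory cells, were detected well above background in every array and differed little between genotypes. Scgb1a1, the main secreted protein of club cells, read 13.22, 13.14 and 13.18 in Gnaq/Gna11 arrays, 13.28, 13.17 and 13.20 in Gna12/Gna13 arrays, 13.12, 13.24 and 13.27 in Gna12 arrays and 13.22, 13.23 and 13.18 in Gna11 arrays. All groups overlapped, and the whole range of 0.16 compares with a median range of 0.91 over all genes. Its values lay 0.68 to 0.86 below the highest value of their array, and whether this upper end of the scale narrowed the differences was not tested. The difference of Scgb1a1 between Gnaq/Gna11 and Gna11 arrays was -0.03, with a 95% interval of -0.13 to 0.06.

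Scgb3a1, a secretoglobin of the larger airways, read 13.44, 13.30 and 13.34 in Gnaq/Gna11 arrays, 13.57, 13.46 and 13.24 in Gna12/Gna13 arrays, 13.46, 13.61 and 13.43 in Gna12 arrays and 13.24, 13.50 and 13.15 in Gna11 arrays. The groups overlapped in each comparison, and its largest difference was 0.20 ± 0.0976 between Gna12 and Gna11 arrays (limma adjusted p = 0.26).

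Scgb3a2, a secretoglobin of club cells and their precursors, read 12.60, 12.48 and 12.48 in Gnaq/Gna11 arrays, 12.71, 12.68 and 12.66 in Gna12/Gna13 arrays, 12.65, 12.72 and 12.68 in Gna12 arrays and 12.69, 12.79 and 12.67 in Gna11 arrays. All 3 Gnaq/Gna11 arrays lay below the other 9. The difference was -0.20 ± 0.0469 against Gna11 arrays (limma adjusted p = 0.0597) and -0.17 ± 0.0469 against Gna12/Gna13 arrays (limma adjusted p = 0.0643), both short of the threshold of 0.05 used throughout. It passed when single arrays were left out: against Gna11 without replicate 1 of Gnaq/Gna11 (adjusted p = 0.048), and against Gna12/Gna13 without that array (adjusted p = 0.043) or without replicate 2 of Gna11 (adjusted p = 0.0472). In bulk cultures, fewer cells of a type and less RNA per cell cannot be told apart, here and in all that follows.

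Among 21 other genes of airway secretory cells, 1 fell between Gnaq/Gna11 and Gna11 arrays and none rose, where 1.84% of all genes were called. That gene was Cyp4b1, a cytochrome P450 of club cells, at 9.49, 9.66 and 9.34 in Gnaq/Gna11 arrays and 10.45, 10.22 and 10.60 in Gna11 arrays, a difference of -0.93 (limma adjusted p = 0.0356). The call for Cyp4b1 was kept in 10 of 23 alternatives. When single arrays were left out it was kept without replicate 2 of Gna11, replicate 3 of Gna12 or replicate 1 or 3 of Gna12/Gna13, and lost without any other array (adjusted p 0.0522 to 0.12). Over the 21 genes the median difference was 0.00, against -0.03 over all genes tested. Between Gnaq/Gna11 and Gna12/Gna13 arrays, 3 of the 21 fell and 1 rose, where 3.39% of all genes were called lower and 2.7% higher. Aldh3a1, an aldehyde dehydrogenase, was at 6.81 ± 0.787 in Gnaq/Gna11 arrays and 9.34 ± 0.245 in Gna12/Gna13 arrays, a difference of -2.53 (limma adjusted p = 0.0055). Cyp4b1 was lower by the same test, with a difference of -1.03 (adjusted p = 0.0105), as was haptoglobin, Hp, with -0.31 (adjusted p = 0.00928). The call for Hp was kept in 22 of 23 alternatives and lost in the limma fit without an intensity trend (adjusted p = 0.0742). The gene that rose was Muc1, a membrane-bound mucin, at 10.68, 11.02 and 11.16 in Gnaq/Gna11 arrays and 10.44, 10.42 and 10.10 in Gna12/Gna13 arrays, a difference of 0.63 (adjusted p = 0.043). The call for Muc1 was kept in 8 of 23 alternatives. When single arrays were left out it was kept without replicate 1 or 2 of Gna11 or replicate 1 of Gnaq/Gna11, and lost without any other array (adjusted p 0.0529 to 0.142).

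The goblet cell genes included the member with the largest difference between genotypes. Clca1 encodes a secreted protein of mucous cells that is strongly induced in allergic airway models. It read 6.69, 6.78 and 8.23 in Gnaq/Gna11 arrays, 4.33, 3.41 and 3.28 in Gna12/Gna13 arrays, 3.47, 3.67 and 3.54 in Gna12 arrays and 3.33, 4.74 and 3.23 in Gna11 arrays. All 3 Gnaq/Gna11 arrays were above the background level and none of the other 9 was.

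Between Gnaq/Gna11 and Gna11 arrays Clca1 rose by a log2 difference of 3.47 ± 0.47 (95% interval 2.44 to 4.5, limma adjusted p = 0.0072). It was the only member of 10 called in this comparison, where 1.84% of all genes were called and 1.17% were called higher. Because the Gna11 value is at background, the fold is a lower bound: set against that level, Clca1 was at least 4.64-fold higher than in Gna11 arrays. Members whose arrays did not overlap numbered 3 of 10, Clca1 above and Scgb3a2 and Foxj1 below, where 19.7% of all genes did not overlap. With the Gapdh 3' excess in the fit the difference for Clca1 was 3.53 but adjusted p was 0.119, and 3 genes were called in all. That excess was 3.01 to 3.26 in the Gnaq/Gna11 arrays and 3.46 to 4.03 in the Gna11 arrays, and its part in the result was not tested.

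Between Gna12/Gna13 and Gna12 arrays Clca1 differed by 0.12 ± 0.47 (95% interval -0.92 to 1.15), with both groups at background. None of the 10 members was called there, none had an unadjusted p under 0.05 and none had arrays that did not overlap. Of all 18193 genes, 0% were called by limma, 11.3% did not overlap and 820 (4.51%) had an unadjusted p under 0.05. The difference between the Gnaq/Gna11 minus Gna11 and the Gna12/Gna13 minus Gna12 values of Clca1 was 3.35 ± 0.664 (95% interval 1.89 to 4.81), and its limma adjusted p of 0.0926 missed the threshold. No member passed that test by limma, in which 0.0715% of all genes were called. Clca1, Scgb3a2 and Foxj1 had an unadjusted p under 0.05 in it, as had 10.8% of all genes. Without replicate 2 of Gna11, which held the highest Clca1 value of its group, the same difference was 3.84 (adjusted p = 0.0495). All Clca1 values outside Gnaq/Gna11 were under the background level, so the sizes 3.35 and 3.84, and whether they pass, rest in part on differences among undetected values.

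The Gnaq/Gna11 and Gna12/Gna13 arrays were also set against each other. Clca1 rose by a log2 difference of 3.56 ± 0.47 in Gnaq/Gna11 arrays (95% interval 2.53 to 4.59, limma adjusted p = 0.00272), at least 5.01-fold against the background level. Called members numbered 2 of 10, Clca1 higher and Foxj1 lower, where 6.1% of all genes were called, 2.7% higher and 3.39% lower. Arrays did not overlap for 3 of 10 members, Clca1 above and Scgb3a2 and Foxj1 below, where 28.4% of all genes did not overlap. Between Gna12 and Gna11 arrays limma called 0 of 10 members, with none at an unadjusted p under 0.05, where 2.82% of all genes were called and 20.9% had such a p. Arrays overlapped for all 10, where 26.3% of all genes did not overlap. The position code in the sample labels changes with the genotype in each of these comparisons, so that code and genotype cannot be told apart.

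A second Clca1 probe set read 2.76 to 3.52 and was not above the background level on any array, so the rise of Clca1 rests on 1 probe set. Its difference between Gnaq/Gna11 and Gna11 arrays was 0.18 ± 0.144. Averaging both probe sets gave 1.83 for the same comparison.

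**Figure D2:**
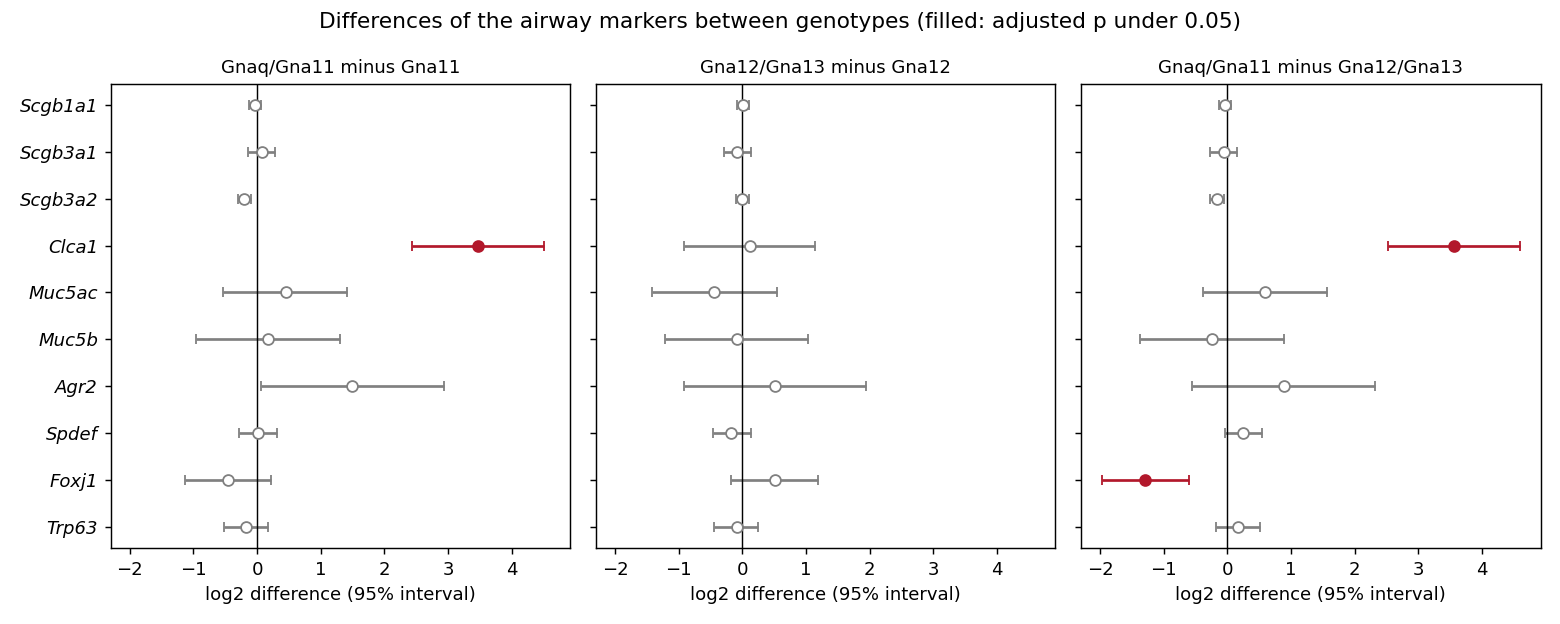
Log2 differences of the 10 airway markers with 95% intervals from the limma fit, for 3 of the comparisons. Filled points passed an adjusted p of 0.05: Clca1 against Gna11 and against Gna12/Gna13, and Foxj1 against Gna12/Gna13.

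Muc5ac, the gel-forming mucin that rises with goblet cell metaplasia, was above background in all 12 arrays. It read 6.80, 6.33 and 7.84 in Gnaq/Gna11 arrays, 6.90, 6.26 and 6.03 in Gna12/Gna13 arrays, 6.56, 7.28 and 6.66 in Gna12 arrays and 6.75, 7.16 and 5.72 in Gna11 arrays. The groups overlapped, although the array with the highest Clca1 value, replicate 3 of Gnaq/Gna11, also had the highest Muc5ac value. The difference of Muc5ac between Gnaq/Gna11 and Gna11 arrays was 0.45 ± 0.444 (95% interval -0.53 to 1.42, limma adjusted p = 0.674). The same difference was -0.44 ± 0.444 between Gna12/Gna13 and Gna12 arrays (95% interval -1.41 to 0.54).

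Muc5b, the gel-forming mucin of resting airways, read 8.94, 8.25 and 8.80 in Gnaq/Gna11 arrays, 9.36, 9.10 and 8.24 in Gna12/Gna13 arrays, 8.75, 9.48 and 8.75 in Gna12 arrays and 7.88, 9.87 and 7.74 in Gna11 arrays. The Gna11 arrays spanned both ends, with replicate 2 the highest and replicates 1 and 3 the lowest of all 12. The difference of Muc5b between Gnaq/Gna11 and Gna11 arrays was 0.17 ± 0.514 (95% interval -0.96 to 1.3, limma adjusted p = 0.909).

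Agr2, a disulfide isomerase of the endoplasmic reticulum that mice need to make intestinal mucin, read 9.99, 8.23 and 9.61 in Gnaq/Gna11 arrays, 8.67, 8.61 and 7.90 in Gna12/Gna13 arrays, 7.84, 8.11 and 7.70 in Gna12 arrays and 6.77, 9.54 and 7.04 in Gna11 arrays. Replicate 2 went against the other arrays of its group both in Gnaq/Gna11, where it was the lowest, and in Gna11, where it was the highest. The difference between Gnaq/Gna11 and Gna11 arrays was 1.49 ± 0.653 (95% interval 0.06 to 2.93, limma adjusted p = 0.289). Without replicate 2 of Gna11 it was 2.37 and passed (adjusted p = 0.0444), so that array decides the call for Agr2. The second Agr2 probe set followed the first over the 12 arrays (Pearson r = 0.994, a description) and differed by 1.33 ± 0.666 in the same comparison.

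Spdef, the transcription factor that drives goblet cell differentiation, was not above the background level on any of the 12 arrays. Its values ran from 4.69 to 4.96 in Gnaq/Gna11, 4.44 to 4.77 in Gna12/Gna13, 4.60 to 4.92 in Gna12 and 4.66 to 4.86 in Gna11 arrays. Its fitted differences, plotted with those of the other members, compare values under that level, none passed, and no fold is given.

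The 24 further goblet cell genes had a median difference of -0.05 between Gnaq/Gna11 and Gna11 arrays, against -0.03 over all genes. Of these 24, 1 rose and none fell, where 1.17% of all genes were called higher. That gene was Slc26a4, which encodes the anion exchanger pendrin and is induced by IL-13 in airway epithelium. It read 8.17, 9.02 and 8.61 in Gnaq/Gna11 arrays and 5.30, 5.32 and 5.43 in Gna11 arrays, a difference of 3.25 (limma adjusted p = 0.0016). Slc26a4 did not overlap between these groups, and with the Gapdh 3' excess in the fit its adjusted p was 0.0507. Between Gna12/Gna13 and Gna12 arrays none of the 24 passed, with a median of -0.14.

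Between Gnaq/Gna11 and Gna12/Gna13 arrays, 3 of the 24 rose and none fell, where 2.7% of all genes were called higher and 3.39% lower. The list as a whole had a median difference of 0.1 against 0.04 over all genes, with 15 positive and 8 negative. Slc26a4 was at 8.60 ± 0.422 and 5.96 ± 0.618, a difference of 2.64 (limma adjusted p = 0.00221). Itln1, the lectin intelectin, read 10.37, 10.39 and 10.26 in Gnaq/Gna11 arrays and 7.10, 7.59 and 5.79 in Gna12/Gna13 arrays, a difference of 3.52 (limma adjusted p = 0.00875). Itln1 was also high in replicate 2 of Gna11, at 10.81, and lower in replicates 1 and 3, at 8.94 and 7.98. Retnlb, a secreted protein of intestinal goblet cells, read 6.11, 6.76 and 4.84 in Gnaq/Gna11 arrays and 4.42, 4.25 and 4.26 in Gna12/Gna13 arrays, all 3 of the last and replicate 3 of Gnaq/Gna11 under the background level. Retnlb was higher in Gnaq/Gna11 arrays (limma adjusted p = 0.0362), at least 1.99-fold against that level, and the fitted 1.59 on the log2 scale is not a measured size. The call was kept without any Gna11 array, without replicate 3 of Gnaq/Gna11 or without replicate 3 of Gna12, and lost without any other array (adjusted p 0.0515 to 0.113).

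**Figure D3:**
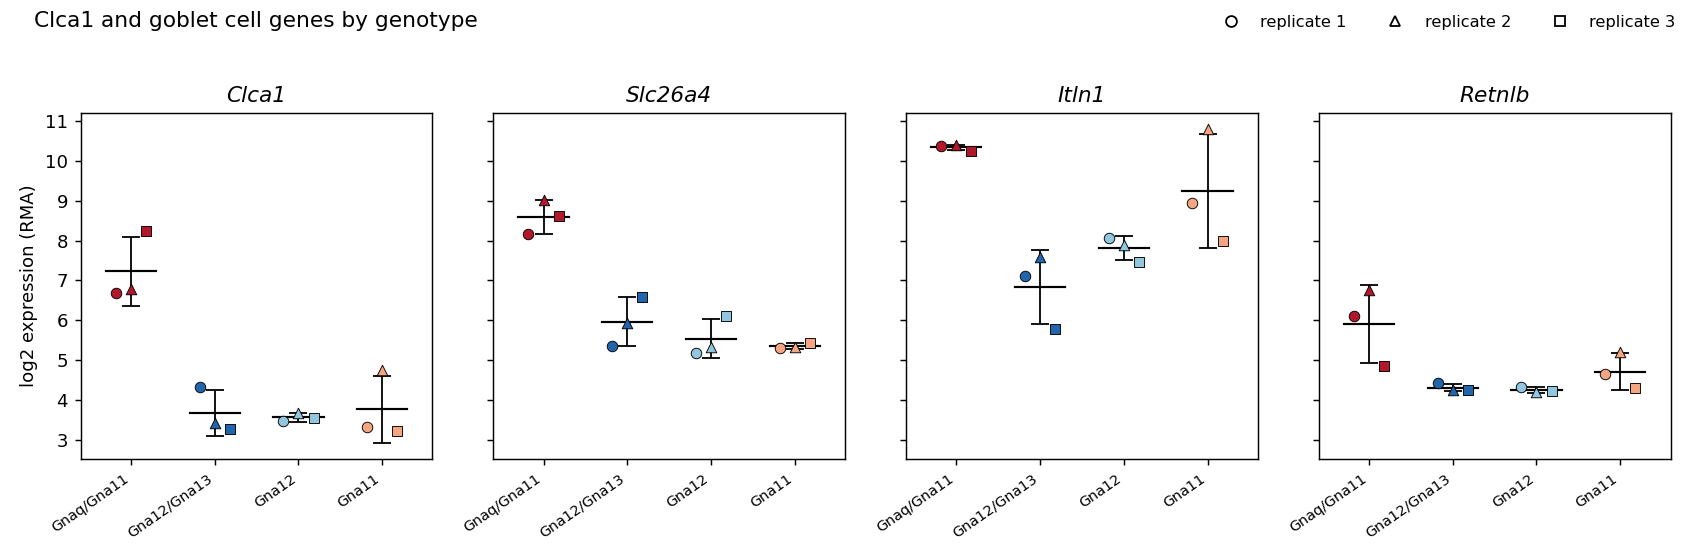
Clca1 and the goblet cell genes Slc26a4, Itln1 and Retnlb in each array on the log2 scale, with group means and SD (n = 3 arrays a group). Clca1 and Slc26a4 are high in the 3 Gnaq/Gna11 arrays alone, and Itln1 is also high in replicate 2 of Gna11.

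Genes of IL-13 and IL-4 signalling and their known targets were read beside Clca1. Of 22 measured, 2 rose and none fell between Gnaq/Gna11 and Gna11 arrays, where 1.17% of all genes were called higher. The median of the list was 0.12, against -0.03 over all genes. Fcer2a, the low-affinity IgE receptor CD23, was at 9.18 ± 0.399 in Gnaq/Gna11 arrays and 6.48 ± 0.614 in Gna11 arrays, a difference of 2.70 (limma adjusted p = 0.00332). Ccl17, a chemokine for CCR4-bearing T cells, was at 13.16 ± 0.044 and 10.93 ± 0.306, a difference of 2.23 (adjusted p = 0.000332). Ccl17 also rose between Gna12 and Gna11 arrays, by 1.77 (adjusted p = 0.000721), so Ccl17 was lowest in the Gna11 arrays, a pattern unlike that of Clca1. That second call for Ccl17 was lost with the Gapdh 3' excess in the fit (1.42, adjusted p = 0.203) or with the pan-leukocyte mean (1.45, adjusted p = 0.297). Leukocyte genes lay in the same direction. In Gna12 arrays 20 of 20 were higher than in Gna11 arrays (median 1.10, against -0.06 over all genes). Of these 20, 5 were called there, where 2.82% of all genes were called. In Gnaq/Gna11 arrays 19 of 20 were higher than in Gna11 arrays (median 0.60, against -0.03 over all genes). There Itgb2, an integrin subunit of leukocytes, was called higher by 1.51 (adjusted p = 0.0375). The call for Itgb2 was kept in 8 of 23 alternatives, among them those without replicate 3 of Gna11 and without replicate 1 or 3 of Gna12/Gna13, and lost without any other array (adjusted p 0.0524 to 0.112). The part of leukocytes in the values of Fcer2a and Ccl17 was not tested. With the pan-leukocyte mean in the fit, Fcer2a and Ccl17 stayed past the threshold between Gnaq/Gna11 and Gna11 arrays, while with the Gapdh 3' excess Fcer2a did not (adjusted p = 0.0507). With its probe sets averaged the difference of Fcer2a was 1.46.

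Against Gna12/Gna13 arrays, 4 of the 22 rose in Gnaq/Gna11 arrays and none fell, where 2.7% of all genes were called higher. The list as a whole had a median difference of 0.06 against 0.04 over all genes, with 12 positive and 9 negative. Il33, an epithelial alarmin that acts upstream of IL-13, was at 11.38 ± 0.183 in Gnaq/Gna11 arrays and 8.54 ± 0.657 in Gna12/Gna13 arrays, a difference of 2.84 (limma adjusted p = 0.00617). Il33 also differed between the single knockouts, at 7.78, 7.02 and 9.04 in Gna12 arrays and 10.35, 9.69 and 9.66 in Gna11 arrays, a difference of -1.95 (adjusted p = 0.0488). That call was kept in 7 of 23 alternatives, among single arrays left out only without replicate 3 of Gna12 or replicate 3 of Gna12/Gna13 (lost otherwise, adjusted p 0.0545 to 0.159), and the difference was -0.76 with the Gapdh 3' excess in the fit. Chil4, a chitinase-like protein of allergic lung, read 7.01, 4.08 and 7.57 in Gnaq/Gna11 arrays and 3.29, 3.48 and 3.51 in Gna12/Gna13 arrays, so that replicate 2 of Gnaq/Gna11 lay far below the other arrays of its group and, like all Gna12/Gna13 arrays, under the background level. Chil4 was at least 2.48-fold higher against that level, where the fitted difference was 2.80 (adjusted p = 0.0381). It was called in 7 of 22 alternatives, among them those without replicate 1 or 2 of Gna11 and without replicate 2 of Gnaq/Gna11, and lost without any other array (adjusted p 0.051 to 0.117). Fcer2a and Retnla, a secreted resistin-like protein, rose by 1.89 and 0.51 (adjusted p = 0.00714 each). Pan-leukocyte genes had a median difference of -0.03 in this comparison, with 6 of 20 positive.

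Foxj1, the forkhead transcription factor that switches on the motile cilia programme, was lowest in Gnaq/Gna11 cells. It read 6.86, 6.88 and 6.69 in Gnaq/Gna11 arrays, 8.31, 8.47 and 7.52 in Gna12/Gna13 arrays, 7.42, 8.03 and 7.31 in Gna12 arrays and 6.92, 7.81 and 7.07 in Gna11 arrays. The 3 Gnaq/Gna11 arrays were below all 9 others, with the lowest Gna11 array close above them. Replicate 2 was the highest of its group in all 4 genotypes.

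Foxj1 fell by 1.29 on the log2 scale in Gnaq/Gna11 arrays against Gna12/Gna13 arrays (SE 0.311, 95% interval -1.97 to -0.61, limma adjusted p = 0.0358). The call sits near the threshold and was kept in 15 of 23 alternatives. It was lost without replicate 1, 2 or 3 of Gnaq/Gna11 (adjusted p = 0.0755, 0.0876 and 0.106), replicate 1 or 2 of Gna12/Gna13 (adjusted p = 0.108 and 0.136) or replicate 1 of Gna12 (adjusted p = 0.0516), with differences of -1.11 to -1.33. Neither double knockout passed for Foxj1 against its own single knockout: the difference was -0.46 ± 0.311 between Gnaq/Gna11 and Gna11 arrays (95% interval -1.14 to 0.22, adjusted p = 0.513) and 0.51 ± 0.311 between Gna12/Gna13 and Gna12 arrays (95% interval -0.17 to 1.19, adjusted p = 1). The difference between these 2 differences was -0.97 ± 0.44 (limma adjusted p = 0.458).

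Many other genes of ciliated cells were also lower in Gnaq/Gna11 than in Gna12/Gna13 cells. Of 25 measured besides Foxj1, 13 fell and none rose in Gnaq/Gna11 arrays against Gna12/Gna13 arrays, which is 52.0% where 3.39% of all genes were called lower. In 21 of the 25 all 3 Gnaq/Gna11 arrays lay below all 3 Gna12/Gna13 arrays, where 12.9% of all genes did. The median difference was -0.83, against 0.04 over all genes. The count fell to 4 without replicate 2 of Gnaq/Gna11, 7 without its replicate 3, 4 without replicate 1 of Gna12/Gna13 and 3 without its replicate 2.

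Ccdc39, a ruler protein that spaces the arms of the axoneme, read 6.41, 5.08 and 5.36 in Gnaq/Gna11 arrays and 8.12, 7.75 and 7.20 in Gna12/Gna13 arrays, a difference of -2.07 (limma adjusted p = 0.00749). Cdhr3, a cadherin of ciliated cells, read 9.09, 8.41 and 8.55 in Gnaq/Gna11 arrays and 10.40, 10.45 and 10.05 in Gna12/Gna13 arrays, a difference of -1.62 (adjusted p = 0.00241). Both kept their call in 23 of 23 alternatives, in which Ccdc39 ranged from -2.47 to -0.74, the smallest with its probe sets averaged. Spag17 and Hydin, proteins of the central pair apparatus, and Lrrc23, a radial spoke protein, fell by 2.03, 1.34 and 1.41 (adjusted p = 0.0391, 0.0196 and 0.0387). Their calls were less stable. All 3 were lost without replicate 2 or 3 of Gnaq/Gna11 or replicate 1 or 2 of Gna12/Gna13, with adjusted p of 0.109 to 0.136 for Spag17, 0.0955 to 0.144 for Lrrc23 and 0.071 to 0.0778 for Hydin. With its probe sets averaged Hydin was at -0.55 (adjusted p = 0.145). Spag17 was also lost without any Gna12 array (0.0527 to 0.0574), and Lrrc23 without replicate 1 of Gnaq/Gna11 (0.0575), replicate 1 of Gna12 (0.0541) or replicate 3 of Gna11 (0.0507). Agr3, an Agr2 relative found in ciliated cells, was not on the ciliated list but among the genes of mucin folding and secretion. It was also lower, at 7.32 ± 0.425 in Gnaq/Gna11 arrays and 9.11 ± 0.091 in Gna12/Gna13 arrays (difference -1.79, limma adjusted p = 0.0105).

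Against Gna11 arrays, all 25 ciliated genes had a negative difference in Gnaq/Gna11 arrays, between -1.09 and -0.01, with a median of -0.52 against -0.03 over all genes. Spag6 (means 2.67 and 2.78) and Rfx3 (3.87 and 4.10) lay under the background level, so their signs compare undetected values. With genes under the median level left out, 23 of 23 were negative. In 8 of the 25 all 3 Gnaq/Gna11 arrays lay below all 3 Gna11 arrays, where 9.83% of all genes did. None passed: 11 had an unadjusted p under 0.05, as had 16.2% of all genes, and the lowest adjusted p was 0.0687, for Rsph4a, a radial spoke head protein. Rsph4a read 10.29, 9.72 and 9.76 in Gnaq/Gna11 arrays and 10.52, 11.13 and 10.62 in Gna11 arrays. Between Gna12/Gna13 and Gna12 arrays the 25 genes lay the other way, with 18 positive and 5 negative differences and a median of 0.16, and none passed. In 8 of the 25 all 3 Gna12/Gna13 arrays lay above all 3 Gna12 arrays, where 6.4% of all genes did. Type II cell genes moved the opposite way to the ciliated list against Gna12/Gna13 arrays. There 9 of 9 had positive differences in Gnaq/Gna11 arrays, with a median of 0.54 against 0.04 over all genes. Of these 9, 4 rose, where 2.7% of all genes were called higher: Slc34a2 by 1.60, Abca3 by 0.91, Napsa by 0.75 and Sftpb by 0.54 (limma adjusted p = 0.00206, 0.00774, 0.0157 and 0.00432). Against Gna11 arrays 6 of the 9 were positive and 3 negative, with a median of 0.11, and none was called. The call for Napsa was lost without replicate 2 or replicate 3 of Gnaq/Gna11 (adjusted p = 0.0543 and 0.0569), and that for Abca3 with its probe sets averaged. Between Gna12 and Gna11 arrays 7 of the 9 were negative, with a median of -0.38 against -0.06 over all genes. There Slc34a2 alone was called, lower by 0.85, where 2.82% of all genes were called (difference -0.85, adjusted p = 0.048, called in 7 of 23 alternatives and lost without any single array other than replicate 3 of Gna11 or replicate 1 of Gna12/Gna13). The part of a shift between alveolar and airway cells in the fall of the ciliated genes was not tested.

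**Figure D4:**
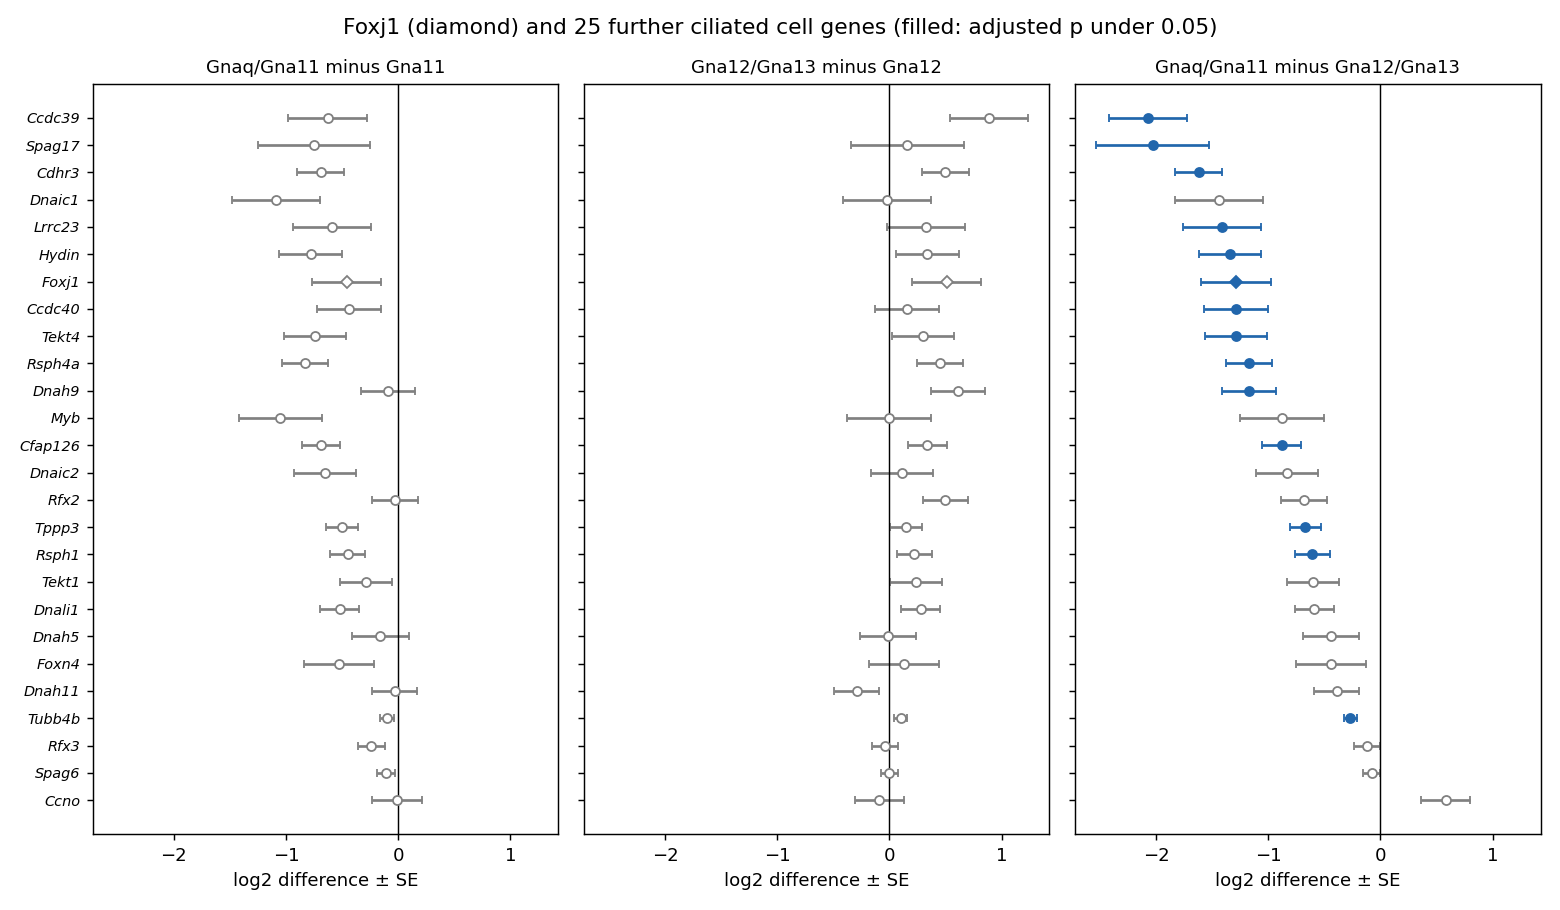
Differences of Foxj1 and the 25 other ciliated cell genes on the log2 scale with standard errors, for 3 comparisons, filled where adjusted p was under 0.05. Of the 25, 13 pass against Gna12/Gna13 and none against Gna11, although all 25 values against Gna11 are below 0. Spag6 and Rfx3 have group means under the background level.

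Trp63, the transcription factor p63 of basal cells, was at the background level. Its representing probe set read 4.42 to 5.10 and exceeded that level on 2 of 12 arrays, and its other 3 probe sets exceeded it on none. Its fitted differences compare values at background, and none passed. Of 17 other basal cell genes, none passed in any comparison, and their median difference was -0.03 between Gnaq/Gna11 and Gna11 arrays. Krt5, the basal keratin, was at 5.90 ± 0.035 in Gnaq/Gna11 arrays and 6.32 ± 0.585 in Gna11 arrays, and Krt15 at 7.24 ± 0.670 and 7.87 ± 0.893.

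Several airway genes varied together within genotypes. Taken as deviations from the group mean over 12 arrays, Muc5b followed Scgb3a1 (Pearson r = 0.94), Agr2 (r = 0.93) and Foxj1 (r = 0.84), and Foxj1 followed Scgb3a1 (r = 0.87). These are descriptions over 4 groups of 3 arrays that share their normalization. Without replicate 2 of Gna11 the values over 11 arrays were 0.95, 0.77, 0.79 and 0.80. That replicate held the highest value of its group in Scgb3a1, Agr2, Muc5b, Clca1 and Foxj1, and its Eif2s3y was low while the other Gna11 arrays were high. With Eif2s3y in the fit, the differences between Gnaq/Gna11 and Gna11 arrays were 3.25 for Clca1 (limma adjusted p = 0.0275) and 0.86 for Agr2 (adjusted p = 0.531), and that of Foxj1 between Gnaq/Gna11 and Gna12/Gna13 arrays was -1.72 (adjusted p = 0.00427). Eif2s3y was low in all 3 Gnaq/Gna11 arrays, so its effect was fitted almost only from replicate 2 against replicates 1 and 3 of the other groups. Low Eif2s3y and genotype are therefore partly confounded, and these values cannot fully separate them.

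**Figure D5:**
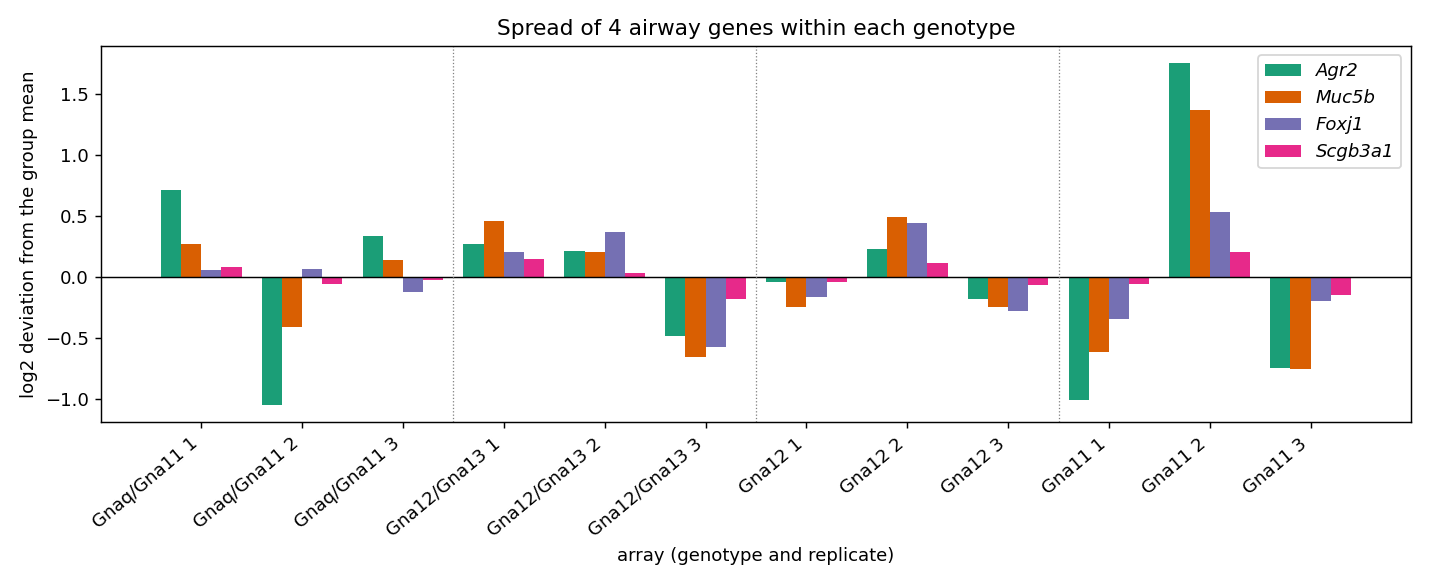
Deviation of Agr2, Muc5b, Foxj1 and Scgb3a1 from the mean of their genotype group in each of the 12 arrays, in log2 units. The bars of replicate 2 of Gna11 are the highest for all 4 genes within that group.

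The promoters of Scgb3a1, a secretory cell gene, and Agr2, a mucus cell gene, are printed because these genes moved together within groups. Their deviations from the group means correlated at r = 0.80 over 12 arrays, and their plain values at r = 0.48. The value for this pair without replicate 2 of Gna11 was not computed. The promoters come from RefSeq on build GRCm38.p6, as 250 bases before and 50 after the annotated start. Of the 10 genes, 3 were matched to an entry. Scgb3a1 lies at chr11:49663345-49663644 on the plus strand, and the capitals mark CACTTG, the opposite-strand form of CAAGTG, a core bound by NKX2-1. Agr2 lies at chr12:35992675-35992974 on the plus strand, and none of the motifs searched was in its window.
Scgb3a1: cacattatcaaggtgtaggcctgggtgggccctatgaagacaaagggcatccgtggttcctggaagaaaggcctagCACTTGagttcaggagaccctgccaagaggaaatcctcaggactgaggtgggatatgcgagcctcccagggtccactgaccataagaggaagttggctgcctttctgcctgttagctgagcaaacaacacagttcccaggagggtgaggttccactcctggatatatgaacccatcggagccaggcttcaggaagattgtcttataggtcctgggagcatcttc
Agr2: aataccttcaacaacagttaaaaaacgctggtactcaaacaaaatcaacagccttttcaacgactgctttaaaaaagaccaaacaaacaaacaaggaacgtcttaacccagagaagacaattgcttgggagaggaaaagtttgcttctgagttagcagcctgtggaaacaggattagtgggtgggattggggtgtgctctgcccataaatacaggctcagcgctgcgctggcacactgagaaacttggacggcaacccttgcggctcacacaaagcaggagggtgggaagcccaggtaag
On both strands the search covered CAAGTG, the forkhead core TNTTTAC, the STAT6 palindrome (TTC and GAA, 4 bases apart) and TATAAA. Of 32544 promoters of the same length, 13.5% held CAAGTG, 12.3% the forkhead core, 6.98% the STAT6 palindrome and 13.6% TATAAA. A match is a description of letters, and these motifs were chosen with the sequences in view.

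The genes whose pattern over the 12 arrays was most like that of a member were sought among 2228 genes with a range of at least 2. For Clca1 they were Fxyd4 (Pearson r = 0.932), Kng1 (r = 0.93) and Pbld2 (r = 0.93). Fxyd4, a regulator of the sodium pump, read 11.09, 11.83 and 11.89 in Gnaq/Gna11 arrays, 8.95, 9.64 and 9.25 in Gna12/Gna13 arrays, 8.85, 8.58 and 8.55 in Gna12 arrays and 8.31, 9.81 and 8.04 in Gna11 arrays. As for Clca1, the 3 Gnaq/Gna11 arrays stood above the rest and replicate 2 was the highest of the Gna11 arrays. Fxyd4 was picked by its likeness to Clca1 on these same arrays, so the shared pattern is no further evidence. All Gna11 values of Clca1 were under the background level. Muc5b was closest to Kcne3 (r = 0.898), Krt17 (r = 0.894) and Cldn22 (r = 0.893), a potassium channel subunit, a keratin and a claudin. Krt17 read 4.5, 7.81 and 5.32 in Gna11 arrays, with replicate 2 the highest as for Muc5b. Agr2 was closest to Gp2 (r = 0.865), Steap1 (r = 0.851) and Sult1c1 (r = 0.845), and Muc5ac to Pirt (r = 0.877), Fzd8 and Prrx1 (r = 0.758 each). Fzd8 and Prrx1 read 6.10 and 6.86 in replicate 3 of Gnaq/Gna11, and at most 4.52 and 5.46 in any other array. Their correlations with Muc5ac thus lean on that array. These correlations are descriptions, and the arrays share their groups and their normalization.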

How the data were processed

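The deposited log2 expression values, 1 per probe set and array, were made by the authors with RMA according to the submitters' processing notes. The log base is not stated and was read as 2. RNA (10 ng per sample) was amplified before labelling, per the labels' protocols. The platform annotation named 1 gene for 34945 of 45037 non-control probe sets, several for 932 and none for 9160. Of the 34945, 34741 were matched by gene identifier to RefSeq (GRCm38.p6) and took its symbol, changed or not. Group means were fitted with limma 3.58.1 (R 4.3.3) over all 12 arrays together (contrasts.fit and eBayes with trend, 8 residual degrees of freedom, 3.19 prior). Tests were two-sided, with Benjamini-Hochberg adjustment over 18193 genes and calls under 0.05. The script was tested on simulated data. The arrays give no read depth, and their number limits the precision.

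Of 168 entries in 8 gene lists, 155 were measured. The members, lists and motifs were chosen with earlier results of these data known. Every member was named. From each list up to 5 called genes with the largest differences could be named, or up to 3 where none was called. For members with a range of at least 2, the 3 genes with the highest correlation were given. There were 23 alternatives, including each array left out, and those for list genes were added after the data were seen. The replicate numbers were not used to pair the arrays, except in the alternative with a replicate block.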

Additional observations from a re-analysis of the deposited data

How the results depend on the processing

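Called members numbered 1 between Gnaq/Gna11 and Gna11 arrays. The count was 2 with quantile normalization once more (Scgb3a2 added, adjusted p = 0.0352), 0 with the Gapdh 3' minus 5' difference as a covariate, and 1 to 2 when single arrays were left out. Called members numbered 2 between Gnaq/Gna11 and Gna12/Gna13 arrays, against 1 when every probe set was its own feature (Foxj1, adjusted p = 0.0512) and 1 to 3 when single arrays were left out. For the difference of the differences the count was 0, and 0 to 1 when single arrays were left out. The counts stayed at 0 between Gna12/Gna13 and Gna12 and between Gna12 and Gna11 arrays under every alternative that was run. Clca1 was called in 21 of 22 alternatives against Gna11, with differences of 1.83 to 4.32. It was not tested when genes under the median level were left out, where Scgb3a2 passed (adjusted p = 0.0448). Over all genes the calls between Gnaq/Gna11 and Gna11 arrays numbered 335, against 3 with the Gapdh covariate, 26 with the pan-leukocyte mean, 166 without replicate 2 of Gna11 and 221 without replicate 1 of Gnaq/Gna11. The cause of these changes was not tested. The 13 ciliated genes that fell against Gna12/Gna13 became 3 to 15 when single arrays were left out and 10 to 16 otherwise, and the 25 negative differences against Gna11 became 22 to 25 and 20 to 25. No called value changed its sign, while 25 of 50 pairs of member and comparison, none of them called, did so at least once. With the replicate number as a block, called members numbered 1 against Gna11 (Clca1, adjusted p = 0.0188) and 2 against Gna12/Gna13 (Foxj1, adjusted p = 0.0153), and 309 genes were called in all against Gna11. Deviations of same-numbered arrays correlated at 0.009 to 0.06 for Gnaq/Gna11 with Gna11 arrays. For Gna12/Gna13 with Gna12 arrays these values were -0.014, 0.271 and 0.196, against -0.285 to 0.062 for differently numbered arrays. For Gna12 with Gna11 arrays they were 0.018, 0.198 and 0.142, against -0.203 to 0.103. Some same-numbered arrays outside Gnaq/Gna11 thus varied together, and whether the numbers mark a pairing was not tested. The limits are 3 arrays a group, no detection calls, values of Spdef, Trp63 and most Clca1 arrays at background, and secretoglobins near the top of the scale.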

Other observations

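Genes that fold, package and release mucins were read beside Agr2. Of 17 measured, 1 rose between Gnaq/Gna11 and Gna11 arrays, where 1.17% of all genes were called higher. The median of the list was -0.04, against -0.03 over all genes. Sdf2l1, a chaperone cofactor of the endoplasmic reticulum, read 7.33, 7.74 and 7.91 in Gnaq/Gna11 arrays and 5.5, 4.59 and 5.02 in Gna11 arrays, a difference of 2.62 (limma adjusted p = 0.0179). The Gna11 values lie at background, with 2 of 3 arrays above that level and 1 under it, so the size of the difference is uncertain. Sdf2l1 was called in 18 of 23 alternatives and lost without replicate 2 of Gna11 (adjusted p = 0.0578) or replicate 2 or 3 of Gnaq/Gna11 (0.063 and 0.0708). It was also lost with the Gapdh 3' excess (0.191) or the pan-leukocyte mean in the fit (1.80, adjusted p = 0.28). Sdf2l1 was also higher in Gna12 than in Gna11 arrays, by 2.08 (adjusted p = 0.0375, called in 10 of 23 alternatives), a difference that was 0.83 with the pan-leukocyte mean in the fit (adjusted p = 0.819). Most pan-leukocyte genes had positive differences in these comparisons, 19 of 20 and 20 of 20, and their part was not tested. Marcks, which links mucin granules to the cytoskeleton, was higher by 1.04 in the same comparison (adjusted p = 0.0498, called in 5 of 23 alternatives), and 0.50 with the pan-leukocyte mean (adjusted p = 0.822). Of the 17, these 2 were the only ones called between Gna12 and Gna11 arrays, where 2.82% of all genes were called. Between Gna12/Gna13 and Gna12 arrays none of the 17 passed. Against Gna12/Gna13 arrays 1 of the 17 fell in Gnaq/Gna11 arrays, Agr3, and none rose, where 3.39% of all genes were called lower. The median of the list there was 0.07, against 0.04 over all genes.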
